A study of Mus musculus with 8 samples.

Results

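The subject is a set of 1272 open chromatin sites of mouse regulatory T (Treg) cells that were strongly accessible, and close to equally so, in the 4 groups of the study. They were taken from 79758 sites counted by ATAC-seq, an assay that reads out where a transposase could insert adapters into open DNA. A site belongs to the set if it is at most 800 bp wide, has at least 40 counts per 1000000 counts (CPM) in every group, and differs by less than 0.3 on the log2 scale (1.23-fold) between any 2 of the 4 groups. CPM here is the summed count of a group's 2 libraries relative to their summed totals. The members are called equal sites below, and positions are on mouse build mm9. They make up 1.59% of all sites, and 43.4% of the 2932 sites that met the width limit and the CPM minimum. The other 1660 of these, here called strong unequal sites, serve as the comparison. The members were thus chosen by the measured counts of all 8 libraries, so levels and group ratios of the equal sites are a description. Where calls and adjusted p-values of members are given below, they describe them too and support nothing.

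The groups are WT cTreg, WT eTreg, Pggt1b-deficient cTreg and Pggt1b-deficient eTreg cells, with 2 libraries each, sorted from spleen and lymph nodes of mixed bone marrow chimeras, hosts in which marrow of more than 1 donor develops side by side. How the gene was deleted (a Cre driver, for example), the sort markers and the age of the animals were not given in the sources used here. Nor was it stated if a group's libraries stem from different chimeras, so the spread between libraries may be partly technical. No site was assigned to a gene, and the Treg identity of the cells was not checked at marker genes. Library totals ran from 7153991 to 14974253 counts in the first 3 groups and were 2255214 and 1664702 in Pggt1b-deficient eTreg cells, the shallowest group.

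Treg cells restrain other immune cells and depend on the factor Foxp3. Central (cTreg) cells circulate through lymphoid organs, and effector (eTreg) cells are their activated form. Pggt1b is the catalytic subunit of the type I protein prenyltransferase that attaches a geranylgeranyl lipid to small GTPases and so anchors them at membranes. Chromatin that stays open across the states of a lineage is commonly found at promoters of broadly expressed genes and at sites bound by the insulator factor CTCF, whereas enhancers change more with cell state. Which of these kinds the equal sites belong to was not analysed here.

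The equal sites had a median of 64.8 CPM (cTreg) and 66.4 CPM (eTreg) in WT cells, and of 66.6 CPM (cTreg) and 66.3 CPM (eTreg) in Pggt1b-deficient cells. Their values ran from the minimum of 40 up to 226 CPM in WT cTreg and 257 CPM in Pggt1b-deficient eTreg cells. Together they held a similar share of every library, from 9.21% of counts in a WT cTreg library to 9.57% in a Pggt1b-deficient eTreg library. The widest of the 6 group ratios had a median of 0.21 on the log2 scale. Only 91 members stayed below 0.1, and 718 lay at 0.2 or above. Pggt1b-deficient eTreg was the highest or the lowest group at 732 members (57.5%). It was the highest at 35.6% and the lowest at 21.9%, against 39.4% and 16.2% of strong unequal sites. WT cTreg was the lowest group at 31.5% of members and the highest at 14.0%, against 22.7% and 11.6% of strong unequal sites.

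Equality as measured was a matter of degree. Among all 2932 strong sites the widest ratio formed 1 continuous distribution with a median of 0.33, close to the limit of 0.3. Of the 1660 strong unequal sites, 690 lay below 0.4 and 22 differed by 1 or more. As measured, the equal sites are therefore the lower part of a continuum. Spread between libraries blurs these ratios, so the distribution cannot show whether unchanged sites form a separate class. Their share of the strong sites did not follow the level in a simple order: it was 55.3% of sites with a mean of 40 to 50 CPM, 37.1% at 50 to 60, 38.7% at 60 to 80, 47.5% at 80 to 120 and 48.2% above. A site with a mean near 40 CPM can have all 4 groups above that minimum only if they are close together, so the shares of the lowest class are set in part by the rule.

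**Figure D1:**
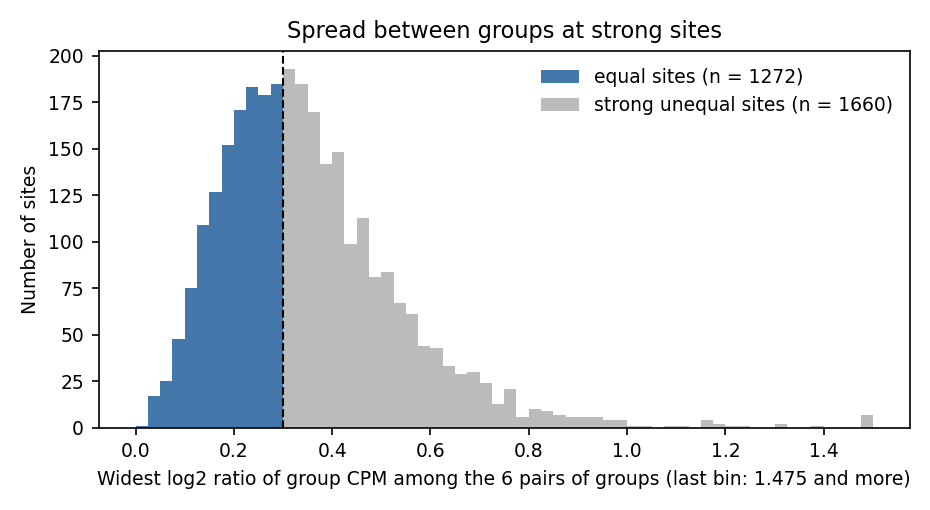
Number of strong sites (at most 800 bp, at least 40 CPM in all 4 groups) by the widest log2 ratio of group CPM among the 6 pairs of groups, with the limit of 0.3 as a dashed line. Blue bars are the 1272 equal sites and grey bars the 1660 strong unequal sites, and the distribution runs through the limit without a gap.

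The highest equal site was chrX:91423013-91423638, with 189.8 and 246 CPM in the cTreg and 194 and 238 CPM in the eTreg libraries of WT cells, and 211 and 228 CPM (cTreg) and 261 and 237 CPM (eTreg) in those of Pggt1b-deficient cells. Here replicate 1 was below replicate 2 in both WT groups, by more than the group means differed. chr9:19426272-19426920 had 223 and 229 CPM in the cTreg and 219 and 209 CPM in the eTreg libraries of WT cells, and 211 and 206 CPM (cTreg) and 270.5 and 238 CPM (eTreg) in those of Pggt1b-deficient cells. Both Pggt1b-deficient eTreg libraries were the highest there, and the site lay just under the ratio limit, at 0.2996. It was also the most isolated member, with the nearest other site 762 kb away.

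chr18:7626504-7627248 had 202 and 197 CPM in the cTreg and 195 and 211 CPM in the eTreg libraries of WT cells, and 214 and 207 CPM (cTreg) and 239 and 232 CPM (eTreg) in those of Pggt1b-deficient cells. The Pggt1b-deficient eTreg libraries again lay above the other 6. At chr10:4540358-4541142 the Pggt1b-deficient cTreg libraries were highest, with 181 and 199 CPM in the cTreg and 198 and 188 CPM in the eTreg libraries of WT cells, and 220.1 and 216 CPM (cTreg) and 199.5 and 202 CPM (eTreg) in those of Pggt1b-deficient cells. At chr18:90748790-90749555 and chr17:17088164-17088608, WT eTreg was the lowest group, at 175 against 197 to 215 CPM and at 166 against 196 to 201 CPM. The rule thus leaves room for ordered differences between groups, up to 1.23-fold, at the sites with the most counts.

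The members with the least spread over single libraries held their level in all 8. The narrowest was chr16:58728098-58728774, a 676 bp site with 124 and 127 CPM in the cTreg and 128 and 129 CPM in the eTreg libraries of WT cells, and 126 and 126 CPM (cTreg) and 127 and 133 CPM (eTreg) in those of Pggt1b-deficient cells. Its full range over the 8 libraries was 0.09 on the log2 scale, although the underlying counts ran from 221 to 1930. Next came chr10:93661614-93661885 with a range of 0.12 around a mean of 47.6 CPM and chr7:114852004-114852657 with 0.14 around 93.4 CPM. chr8:23918966-23919230 (0.15, mean 47.6 CPM), chr2:60221052-60221841 (0.15, 85.9 CPM) and chr11:29592671-29593357 (0.15, 164 CPM) followed.

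Close group values did not always mean close libraries. The smallest widest ratio, 0.02, was at chr14:60883826-60884597, with 64.8 (cTreg) and 65.6 CPM (eTreg) in WT cells and 64.7 (cTreg) and 65.3 CPM (eTreg) in Pggt1b-deficient cells. Its 2 Pggt1b-deficient eTreg libraries, however, had 73.6 and 54.1 CPM, on either side of all other libraries. At chr14:32149515-32150222, with a widest ratio of 0.03, they had 67.4 and 45.1 CPM, and at chr6:49317293-49318022, also 0.03, 59.4 and 87.7 CPM. In these 3 sites the group value of Pggt1b-deficient eTreg cells is an average of unlike libraries. At chr7:121419145-121419940 (0.03) they had 49.2 and 40.2 CPM, and at chr2:10064432-10064670 (0.04) 38.6 and 45.7 CPM. Among the 6 members with the smallest widest ratio, only chr8:23918966-23919230 (0.03) was also among the 6 with the least spread over libraries.

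**Figure D2:**
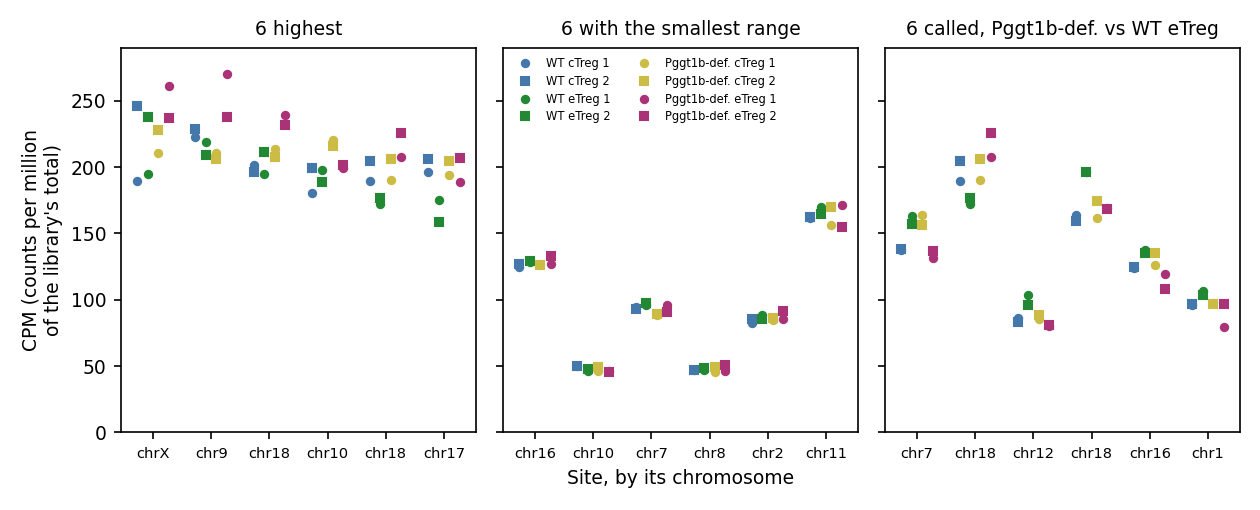
CPM of single libraries (circles replicate 1, squares replicate 2) at the 6 equal sites with the highest mean, the 6 with the smallest range over the 8 libraries, and the 6 called between Pggt1b-deficient and WT eTreg cells, each labelled by its chromosome. Libraries overlap closely in the middle panel, where the first site lies between 124 and 133 CPM, and the Pggt1b-deficient eTreg libraries stand apart at several sites of the other panels.

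At the edges of the rule, values ran on from members to other sites without a step. chr11:63892845-63893506 was the last inside the ratio limit, at 0.2999, followed by chr16:10772218-10772562 at 0.2997. The first outside, chr5:76958127-76958693, was at 0.3006, before chr3:152059477-152060241 at 0.3011 and chr12:119615644-119615985 at 0.3013. At the CPM minimum, chr19:4793890-4794219 was inside with 40.01 CPM in its lowest group, and chrX:106028106-106028598 and chr13:114404794-114405155 with 40.05 CPM each. chr12:52946059-52946229 was outside with 39.98 CPM, and chr14:76903961-76904471 and chr5:109098000-109098543 with 39.93 CPM each. The member on chromosome X varied most among these, as its Pggt1b-deficient eTreg libraries had 51.9 and 24.0 CPM.

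How far the 2 libraries of a group differ was not used by the rule. At the equal sites the median absolute log2 ratio between them was 0.07 for each subset of WT cells, and 0.08 (cTreg) and 0.18 (eTreg) for Pggt1b-deficient cells. The SD of this ratio over sites was 0.109, 0.110, 0.124 and 0.269 in that order. Counting error with each count taken as independent gives a median SD of 0.072, 0.070, 0.089 and 0.182, below the observed SD in every group. With every 2 counts taken as 1 observation it gives 0.102, 0.099, 0.126 and 0.257. Of the counts at the members, 56.4 to 80.3% were even in a library. Which of these calculations applies was not tested. Strong unequal sites had nearly the same SDs, of 0.113, 0.116, 0.136 and 0.279. Replicate spread was widest in the group with the lowest counts: the median member had 152 and 112 counts in the Pggt1b-deficient eTreg libraries, against 474 to 978.5 in the other 6. At 323 members the 2 Pggt1b-deficient eTreg libraries lay at least 0.3 apart, against 12 to 23 members in the other groups. Over all 8 single libraries 383 members (30.1%) stayed within 0.3, and over the 6 libraries of the other 3 groups 850 (66.8%) did.

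**Figure D3:**
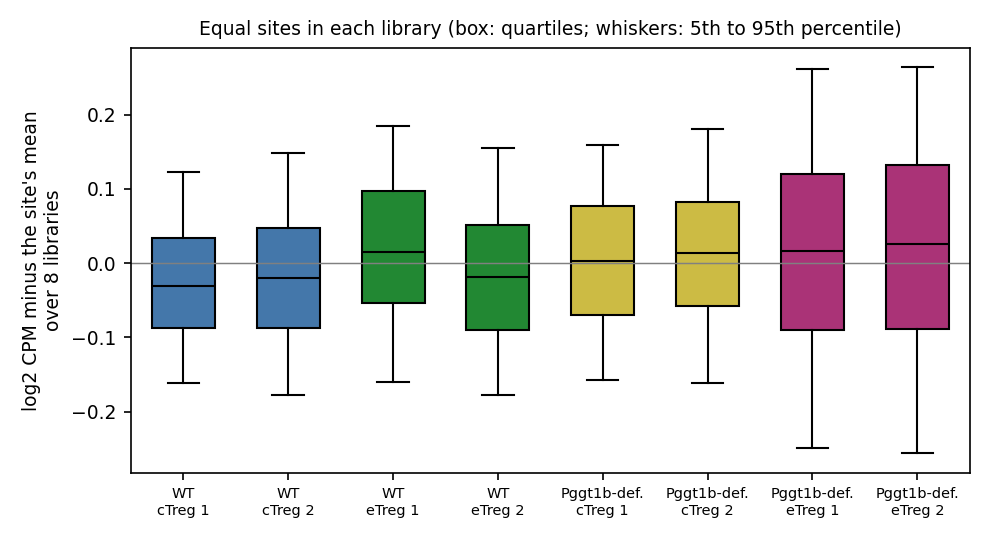
log2 CPM of the 1272 equal sites in each library, each relative to the site's mean over the 8 libraries. Boxes show quartiles and whiskers the 5th to 95th percentile over sites, which reach farthest in the 2 Pggt1b-deficient eTreg libraries.

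Equality in 1 set of libraries carried over to the other in part. With the rule applied to replicate 1 of every group, 1041 sites met it, and 514 of them (49.4%) also met it in replicate 2. Of the 1103 sites that met it in replicate 2, these 514 are 46.6%. Of the strong sites that were unequal in replicate 1, 27.8% met the rule in replicate 2. Without the Pggt1b-deficient eTreg libraries the carry-over was higher: 1895 sites met the rule in replicate 1 of the other 3 groups and 1389 of them (73.3%) also in replicate 2, against 27.8% of the sites that were unequal in replicate 1. Sites equal in replicate 1 had a median widest ratio of 0.21 in replicate 2 of these 3 groups, and sites unequal in replicate 1 had 0.40. This division of the libraries was made after the data were seen.

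Choosing sites from 3 groups leaves the fourth as an independent reading, an approach also added after the data were seen. Of the 2000 sites of the required width that were strong and equal in the groups other than WT eTreg, 80.7% lay within 0.3 of the mean of those groups in WT eTreg. A further 272 lay more than 0.3 below it and 114 above, down to -1.98 and up to 0.72. Reading Pggt1b-deficient eTreg cells in the same way, 82.3% of 1986 sites lay within 0.3, with 220 above and 131 below. The cTreg groups deviated less: 95.7% of 1571 sites lay within 0.3 in WT cTreg and 92.8% of 1644 sites in Pggt1b-deficient cTreg cells. More sites thus left the set through the eTreg groups than through the cTreg groups. The directions hold for library totals, the scale of the rule, and the calls with TMM scaling given next had more higher than lower sites in WT eTreg. In Pggt1b-deficient eTreg, genotype, subset and low depth cannot be told apart in these counts, while the WT eTreg libraries had totals of 11194290 and 14974253.

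**Figure D4:**
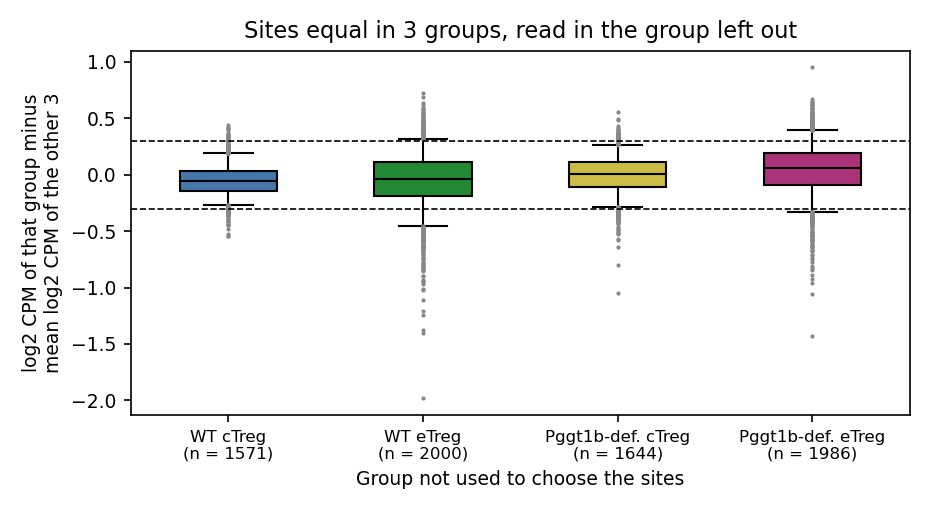
For sites that were strong and equal in 3 groups, the log2 CPM of the fourth group, which was not used to choose them, minus the mean log2 CPM of the 3. Boxes show quartiles, whiskers the 5th to 95th percentile and dots the sites beyond, with dashed lines at 0.3 and -0.3: both eTreg groups reach farther from 0 than the cTreg groups.

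edgeR's quasi-likelihood test gave calls in these held-out readings. Between Pggt1b-deficient and WT eTreg cells 235 of the 1986 sites chosen without Pggt1b-deficient eTreg were called at an adjusted p under 0.05 (11.8%), 132 higher and 103 lower in the deficient cells, where 11.1% of all 75352 sites tested were called. Between eTreg and cTreg cells of the Pggt1b-deficient genotype 213 were called (10.7%), against 9.12% of all sites, with 163 higher and 50 lower in eTreg. Of the 2000 sites chosen without WT eTreg, 579 were called between WT eTreg and WT cTreg (28.95%), against 28.7% of all sites, with 329 higher and 250 lower in WT eTreg. These shares lie near those of all sites, but the sites differ in counts. The held-out sites had at least 40 CPM in 3 groups, whereas all sites tested had a median of 288 counts over the 8 libraries. Smaller changes can be called at higher counts, and the shares were not matched for this. The cTreg groups gave lower shares where the contrast was with eTreg. Of the sites chosen without WT cTreg, 18.8% were called between WT eTreg and WT cTreg. Of those chosen without Pggt1b-deficient cTreg, 4.08% were called between the deficient subsets. Between Pggt1b-deficient and WT cTreg cells, 1.59% and 2.31% of the 2 sets were called, against 2.21% of all sites. In each contrast the other group had taken part in the choice.

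The same test at the 1272 equal sites, all of which passed the filter on low counts, is a description only, since the rule limits these contrasts. Between WT eTreg and WT cTreg 135 members were called (10.6%), 129 higher and 6 lower in eTreg, where 28.7% of all sites were called (13.8% higher, 14.9% lower). Pggt1b-deficient against WT gave 0 calls in cTreg, where 2.21% of all sites were called (0.53% higher, 1.69% lower). DESeq2 also called 0 members there. In eTreg the same contrast gave 6 calls, 1 higher and 5 lower in deficient cells, against 11.1% of all sites (4.66% higher, 6.43% lower), and the subsets of Pggt1b-deficient cells gave 4, all higher in eTreg, against 9.12% (4.59% higher, 4.52% lower). The interaction, the difference of the genotype effect between subsets, gave 1 call, below 0, against 1.51% (0.957% above and 0.555% below 0). Of the strong unequal sites, which the rule sets apart by these same ratios, 49.0%, 6.93%, 28.1%, 24.9% and 4.04% were called, in the order of comparisons above. A model fitted to the 4 compared libraries alone called 33 members between Pggt1b-deficient and WT cTreg cells, and 27 were called without both Pggt1b-deficient eTreg libraries. The counts moved with single libraries. For the WT subsets they were 10 and 31 without replicate 1 or 2 of WT cTreg, 19 and 64 without replicate 1 or 2 of WT eTreg, and 200 without either Pggt1b-deficient eTreg library. In the other comparisons, leaving out replicate 1 or 2 of Pggt1b-deficient eTreg changed member calls and calls over all sites unequally. Over all sites, calls rose for genotype in cTreg and fell for genotype in eTreg. For the deficient subsets and the interaction, they fell without replicate 1 and rose without replicate 2. In every case these comparisons gave more member calls than with all 8 libraries. Without any 1 of the other 6 libraries they gave 0 to 4.

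The direction of these calls depended on scaling. edgeR's TMM scaling, which takes most sites as unchanged, gave 95.6% of the member calls between WT eTreg and WT cTreg as higher in eTreg, but library totals, the scale of the rule, gave 79 higher and 42 lower (65.3%). For Pggt1b-deficient against WT eTreg, TMM gave 1 higher and 5 lower, and library totals 15 higher and 2 lower. The median log2 fold change of members in the WT subset comparison was 0.08 with TMM and 0.03 with totals. Relative to the median of all sites it was 0.07 under both. No direction of small shifts is therefore given for the equal sites as a set.

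The named calls were small, each under 0.4 on the log2 scale in the pairwise comparisons. chr18:62339138-62339871, a 733 bp site, had 164 and 159 CPM in the cTreg and 197 and 196 CPM in the eTreg libraries of WT cells, and 162 and 175 CPM (cTreg) and 169 and 168 CPM (eTreg) in those of Pggt1b-deficient cells. WT eTreg stood above all other libraries, which overlapped. Its log2 fold change between WT eTreg and WT cTreg was 0.33 ± 0.07 (SE; edgeR adjusted p = 0.000503, range over alternatives 2.25e-05 to 0.0188). Pggt1b-deficient against WT eTreg gave -0.26 ± 0.08 at this site (edgeR adjusted p = 0.0406, range 0.0305 to 0.178). Both contrasts use the WT eTreg libraries.

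Of the other 5 members with the lowest adjusted p between WT eTreg and WT cTreg, each had both WT eTreg libraries above both WT cTreg libraries. chr12:109417458-109418184 had 102 and 91.9 CPM in the cTreg and 122 and 117 CPM in the eTreg libraries of WT cells, and 105 and 101 CPM (cTreg) and 114 and 123 CPM (eTreg) in those of Pggt1b-deficient cells, so that both eTreg groups lay above both cTreg groups. chr6:85324466-85325169, chr13:97440617-97441242, chr6:142335308-142336097 and chr5:104475428-104476140 had log2 fold changes of 0.34 ± 0.08, 0.32 ± 0.08, 0.30 ± 0.07 and 0.34 ± 0.09 (SE; edgeR adjusted p of 0.00177 to 0.0023). The adjusted p of each of these 5 rose above 0.05 in at least 1 alternative, up to 0.188 at chr5:104475428-104476140.

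chr7:82600054-82600546 was the member with a called interaction. It had 137 and 138 CPM in the cTreg and 163 and 157 CPM in the eTreg libraries of WT cells, and 164 and 156 CPM (cTreg) and 131 and 137 CPM (eTreg) in those of Pggt1b-deficient cells. The WT eTreg and Pggt1b-deficient cTreg libraries lay between 156 and 164 CPM and the other 4 between 131 and 138 CPM, so that the 2 pairs of groups did not overlap. The interaction was -0.51 ± 0.12 (SE; edgeR adjusted p = 0.0148, range over alternatives 0.00432 to 0.0989), and Pggt1b-deficient against WT eTreg gave -0.30 ± 0.09 (edgeR adjusted p = 0.0233, range 0.0171 to 0.131).

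The other named calls all involved the shallow Pggt1b-deficient eTreg libraries. chr12:101425622-101426045 had 86.2 and 83.0 CPM in the cTreg and 104 and 95.7 CPM in the eTreg libraries of WT cells, and 85.6 and 88.3 CPM (cTreg) and 80.3 and 81.1 CPM (eTreg) in those of Pggt1b-deficient cells. Both WT eTreg libraries stood above all others, which lay between 80.3 and 88.3 CPM. WT eTreg against WT cTreg gave 0.28 ± 0.09 (SE, edgeR adjusted p = 0.00979). Pggt1b-deficient eTreg against deficient cTreg gave -0.09 ± 0.11 (SE, edgeR adjusted p = 0.657). Both Pggt1b-deficient eTreg libraries were the lowest (log2 fold change against WT eTreg -0.34 ± 0.11, SE; edgeR adjusted p = 0.0313, range 0.0235 to 0.191). chr16:5255808-5256437 and chr1:75165142-75165730 were also lower in the deficient eTreg cells, with log2 fold changes of -0.29 ± 0.10 and -0.31 ± 0.11, and chr18:90748790-90749555 was higher, at 0.27 ± 0.08 (SE; edgeR adjusted p of 0.0282 to 0.0496, each above 0.05 in at least 1 alternative, up to 0.38). Between Pggt1b-deficient eTreg and cTreg cells, chr9:19426272-19426920, chr11:63735679-63736155, chr12:16598372-16598698 and chr13:67161643-67162377 were higher in eTreg, by 0.31 ± 0.08, 0.30 ± 0.10, 0.31 ± 0.10 and 0.29 ± 0.09 (SE; edgeR adjusted p of 0.0126 to 0.0456). Each of these 4 rose above an adjusted p of 0.3 in at least 1 alternative. At chr12:16598372-16598698 the 2 Pggt1b-deficient eTreg libraries had 129 and 176 CPM, the first of them within the range of the other groups.

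Sites around the equal sites gave a reading that the rule did not use beyond the library totals. Members were left out of it. Within 2 kb of a member, edge to edge, 12.9% of 1944 tested sites were called between WT eTreg and WT cTreg, and at 2 to 10 kb 23.8% of 2044, at 10 to 50 kb 26.7% of 6690 and beyond 50 kb 29.9% of 63402. All sites tested gave 28.7%. The other pairwise comparisons had the same order with distance: from 0.566% within 2 kb to 2.38% beyond 50 kb for Pggt1b-deficient against WT cTreg, from 5.97% to 11.6% for the same in eTreg, and from 4.63% to 9.65% between the subsets of Pggt1b-deficient cells. Sites within 2 kb had a median of 227 counts over the 8 libraries and a median width of 100 bp, and the next zones 253 counts and 102 bp, 276 counts and 105 bp, and 250 counts and 101 bp. The nearest zone thus had the fewest counts, and the part of this in the called shares was not tested. Small gaps are common here, and a site within 2 kb may belong to the open stretch that holds the member.

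Called shares near the equal sites moved with single libraries. For the shares listed next, the number of calls over all sites moved in the same direction. That did not hold for every library left out. Whether the changes are particular to these surroundings was not tested. Within 10 kb, 18.5% of sites were called between WT eTreg and WT cTreg, but 9.84% and 9.78% without replicate 1 or 2 of WT cTreg and 10.7% and 10.4% without replicate 1 or 2 of WT eTreg. For genotype in cTreg the share of 1.05% became 0.216% and 0.457% without replicate 1 or 2 of Pggt1b-deficient cTreg, 0.221% and 0.245% without those of WT cTreg, and 1.92% and 1.93% without those of Pggt1b-deficient eTreg. For genotype in eTreg 7.62% became 4.47% without replicate 1 of Pggt1b-deficient eTreg, and 3.73% and 3.42% without replicate 1 or 2 of WT eTreg. Between the deficient subsets 5.67% became 2.21% without replicate 1 of the cTreg and 2.69% without replicate 1 of the eTreg libraries. The order with distance was not recomputed without single libraries.

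Strong unequal sites had a similar surrounding. Within 2 kb of them 16.2% of 2610 sites were called between WT eTreg and WT cTreg, 6.70% higher and 9.46% lower in eTreg. Near equal sites the values were 7.05% higher and 5.81% lower. At 2 to 10 kb, 28.8% were called near strong unequal sites and 23.8% near equal sites, of which 19.3% and 14.6% were lower in eTreg. Shares were thus lowest close to both kinds of strong site, and the share near equal sites was the lower of the 2 in each of the 4 pairwise comparisons at up to 2, 2 to 10 and 10 to 50 kb. The 95% Wilson intervals of the 2 kinds overlapped at these distances in the comparisons other than that of the WT subsets. The difference was not tested, because neighbouring sites are not replicates. With all strong sites left out, 18.1% of sites within 10 kb of a member were called, against 18.5% with only the members left out.

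**Figure D5:**
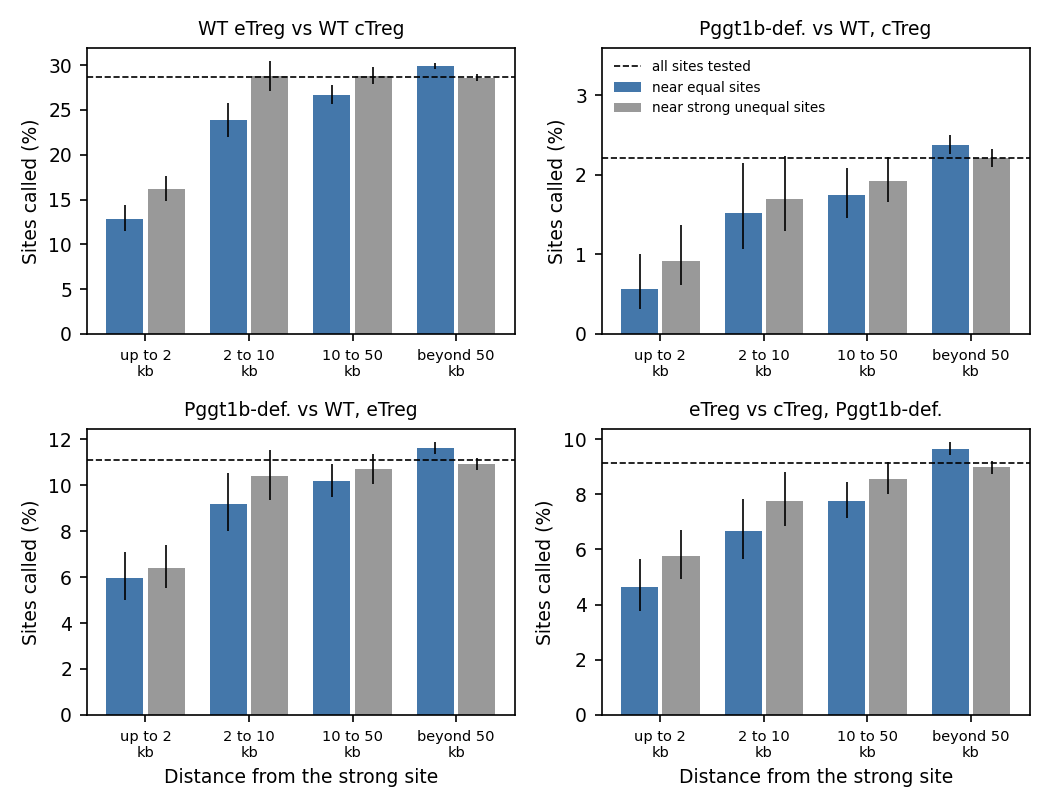
Percent of tested sites called (edgeR adjusted p under 0.05) by their distance from the nearest equal site (blue) or strong unequal site (grey), in the 4 pairwise comparisons. Bars show the share, with sites of the same class left out, error bars the 95% Wilson interval, which covers counting error only, and dashed lines the share over all sites: between WT eTreg and WT cTreg the blue bars go from 12.9% within 2 kb to 29.9% beyond 50 kb.

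Equal sites also occurred among called ones. Of 1144 members with a tested non-member within 10 kb, 462 (40.4%) had at least 1 that was called between WT eTreg and WT cTreg, and 63 had at least 3. Members had a median of 3 sites within 10 kb, and 18.5% of sites that near were called, against 28.7% of all sites. The matching share of strong unequal sites or of all sites with a called neighbour is not given here, so the 40.4% is a count only. The 267 bp site chr2:18880802-18881069 had 46.9 and 46.7 CPM in the cTreg and 45.3 and 46.0 CPM in the eTreg libraries of WT cells, and 48.1 and 45.3 CPM (cTreg) and 43.0 and 52.9 CPM (eTreg) in those of Pggt1b-deficient cells, all within 0.30 on the log2 scale. Around it 12 of 13 sites within 10 kb were called, 11 lower and 1 higher in WT eTreg. At chr13:85646551-85646856, 9 of 12 neighbours were called, all lower in WT eTreg, while the member had 94.1 and 90.2 CPM in WT cTreg and 78.2 and 87.6 CPM in WT eTreg libraries. chr4:32344720-32345485 had 9 of 14 neighbours called, 3 higher and 6 lower, and chr16:52061006-52061805 had 7 of 17, all lower.

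Other members had many neighbours and no calls among them. chr4:144830576-144831202 had 16 tested neighbours within 10 kb and none was called between WT eTreg and WT cTreg. The site itself had 94.1 and 90.0 CPM in the cTreg and 94.1 and 85.3 CPM in the eTreg libraries of WT cells, and 89.3 and 90.0 CPM (cTreg) and 79.8 and 84.1 CPM (eTreg) in those of Pggt1b-deficient cells, with the lowest values in the deficient eTreg libraries. chr7:90803806-90804164 had 13 such neighbours, and chr12:25780877-25781613 and chr18:68387165-68387671 had 12 each, none called.

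Where another strong site lay within 10 kb, it was more often equal beside an equal site. The nearest strong site was itself equal at 89 of 163 equal sites (54.6%), and at 75 of 203 strong unequal sites (36.9%), where 43.4% of all strong sites are equal. Within 2 kb the shares were 50 of 89 (56.2%) and 39 of 89 (43.8%). Each site was looked up in turn, so 2 equal sites nearest to each other are counted 2 times. Both labels come from the ratios of the rule, and the difference was not tested. These pairs are few, and neighbouring sites can share an open region.

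Equal sites were wide for this table. Their median width was 559.5 bp, against 95 bp for the other sites of up to 800 bp outside the strong ones and 547 bp for strong unequal sites. The CPM minimum favours wide sites: 53.7% of sites of 600 to 800 bp were strong, but 0.076% of those under 200 bp. Among strong sites the share of equal ones moved little with width, from 38.6% under 200 bp, with 17 members, to 45.1% at 600 to 800 bp. A further 1027 sites over 800 bp met the other limits of the rule and are not members. Per kilobase the equal sites had a median of 134 CPM, strong unequal sites 132 and the other sites 35.0. The densest, chr14:119406657-119406810, was 153 bp wide with 884 CPM per kb, and the next, chr2:13480434-13480512 and chr4:147183895-147183980, were 78 and 85 bp wide with 562 and 559.5 CPM per kb. These 3 were picked after their values were seen.

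Having the highest CPM of a window is largely set by the CPM minimum of the rule and is given only as a description. Among the 1158 with another site within 10 kb, 1007 (87.0%) had the highest mean CPM of that window, and strong unequal sites did so at 89.1%. Within 50 kb the shares were 67.1% and 69.0%. The median gap from a member to the nearest site was 240 bp, against 269 bp for strong unequal sites and 580 bp for the other sites of up to 800 bp. No other site lay within 10 kb of 114 members (8.96%), against 8.43% of strong unequal sites and 13.4% of all sites. Within 50 kb, 12 members had none. Besides the site on chromosome 9, chr10:14425012-14425603 lay 314 kb and chr4:130036964-130037567 142 kb from the nearest site. Both were picked after their values were seen.

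Equal sites occurred on 20 chromosomes, and 2 lay on unplaced contigs. Their share of the strong sites ran from 35.6% on chromosome 9 (47 of 132, 95% Wilson interval 28.0 to 44.1%) to 52.5% on chromosome 4 (93 of 177, 45.2 to 59.8%). Chromosomes 5, 19 and 11 followed at the low end with 36.1%, 36.9% and 38.0%, and chromosomes 18, 16, 7 and 1 at the high end with 50.9%, 49.3%, 48.8% and 48.5%. On chromosome X, 51 of 106 strong sites were equal (48.1%). The intervals cover counting error only, and 20 shares were compared without a test. The interval of chromosome 4 lies above those of chromosomes 9 and 5, which end at 44.1% and 43.7%.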

How the data were processed

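The authors deposited 1 table of unnormalised counts per site and library. The submitters' processing notes name MACS2 2.1.1, bedtools, SAMtools, Picard 2.9.4 and Trimmomatic 0.36, and mouse build mm9 (NCBIM37). Not given in the sources used here: the aligner, the shift of read ends, the peak threshold and the counting of reads or fragments. Site positions are as in the table, and whether starts count from 0 or 1 is not stated. The gene and promoter tables at hand are on another build, so genes, sequences, GC content, motifs and the gene lists and cell markers of the design were not analysed here. Per-site CPM uses column totals, as in the rule. Calls come from edgeR 4.0.16 in R 4.3.3: filterByExpr, TMM scaling, 1 mean per group over 8 libraries, quasi-likelihood tests, two-sided, Benjamini-Hochberg adjustment over all 75352 sites tested. Standard errors come from the fold change and its F statistic. DESeq2 1.42.0 was an alternative, besides other scalings, filters, left-out libraries and rule settings. With 2 libraries a group, the smallest p of an exact permutation test is 0.33. The edgeR procedure was tried on simulated counts with planted changes larger than any member call named here, so the trial does not cover calls of that size. The members, comparisons and naming rule were chosen with earlier results of these data known. Named are the 6 members with the highest mean CPM, with the smallest widest ratio and with the smallest range over libraries, 3 on each side of each limit, up to 6 called per comparison, and 4 each with the most called or the most uncalled neighbours. Others are said to have been picked after their values were seen. No pairing of libraries by replicate number was seen, in a check that counting error limits.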

Additional observations from a re-analysis of the deposited data

Results flagged for a closer look

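At the 492 bp site chr7:82600054-82600546, chosen as a member by the same group counts, edgeR gave an interaction between genotype and subset of -0.51 ± 0.12 (SE, log2; adjusted p = 0.0148). It was the 1 call among 1272 members, where 1.51% of all sites were called, and it describes these libraries without being an independent test. Both Pggt1b-deficient cTreg libraries lay above both WT cTreg libraries, and both Pggt1b-deficient eTreg libraries below both WT eTreg libraries. The adjusted p was 0.0867 without replicate 1 of Pggt1b-deficient cTreg, 0.0989 and 0.0641 without replicate 1 or 2 of WT cTreg, and 0.0753 without replicate 1 of WT eTreg, and it stayed below 0.05 in the other 8 alternatives run.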

How the results depend on the processing

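The number of equal sites moved with each limit: 2410 at a CPM minimum of 20 and 324 at 80, 554 at a ratio limit of 0.2 and 1962 at 0.4, 2299 with no width limit and 269 at 400 bp. TMM-scaled totals gave 1258 sites (1152 shared) and the mean CPM of 2 libraries 1286 (1222 shared). Leaving out replicates gave 1041 to 1251. For WT eTreg against WT cTreg, DESeq2 called 13869 sites and 75 members, and 208 members were called with only the 4 compared libraries and 284 without both Pggt1b-deficient eTreg libraries, where 23.4% of sites within 10 kb of a member were called. Genotype in cTreg gave 869 calls with DESeq2, 3480 with 33 members from 4 libraries, 3163 with 27 members and 2.04% of neighbours without both Pggt1b-deficient eTreg libraries, and 1 member each without TMM and without the filter. Genotype in eTreg gave 5340 calls and 1 member from 4 libraries, 2 members with DESeq2 and 17 without TMM. Subsets in deficient cells gave 3174 calls and 1 member from 4 libraries, 1 member with DESeq2, 9 without TMM and 2 without the filter. The interaction gave 741 calls with DESeq2, and 2 members without TMM or the filter.

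Deviations of replicate 1 were almost uncorrelated between groups (-0.0164 to 0.057). Counting error lowers such correlations, so this check cannot exclude a pairing of libraries, and the sources do not state one. The replicate block, in the order of comparisons above, gave 20212, 1569, 7781, 6341 and 1041 calls and 111, 0, 3, 1 and 1 members. Leaving out 1 library gave 12756 to 26040, 378 to 3112, 4569 to 8133, 3161 to 7317 and 382 to 2035 calls, and 10 to 200, 0 to 7, 0 to 29, 0 to 29 and 0 to 7 members. Called neighbours within 10 kb, 18.5%, 1.05%, 7.62%, 5.67% and 0.978%, then ran over 9.78 to 22.6%, 0.216 to 1.93%, 3.42 to 6.95%, 2.21 to 5.94% and 0.271 to 1.64%. They were 12.9%, 0.566%, 5.97%, 4.63% and 0.617% at 2 kb. At 50 kb they were 23.6%, 1.49%, 9.22% and 6.99%, and among calls of at least 2-fold 10.2%, 0.527%, 4.86% and 3.66%, in the 4 pairwise comparisons. The median gap was 580 bp in all other sites of up to 800 bp, against 269 bp in strong unequal sites. Apart from the alternatives whose construction sets the change (limits, distances, fewer libraries), the cause was not tested. Member counts were lowest in Pggt1b-deficient eTreg, with medians of 152 and 112. The alternative with a 200 base sequence window was not run, since sequence of this build was not used here.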
